A study of Mus musculus with 11 samples.

Results

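Solute carriers of the families SLC4, SLC8, SLC9, SLC12, SLC20, SLC24, SLC26 and SLC34 move ions across a membrane by exchanging one ion for another or by carrying ions together down a shared gradient. In the colon, sodium-proton exchange and chloride-bicarbonate exchange at the apical membrane take up sodium chloride, and water follows. The basolateral sodium-potassium-chloride cotransporter loads crypt cells with chloride for secretion. Genes of these families were compared between the colons of germ-free and humanized mice. They were chosen by name, as every gene whose symbol began with Slc4a, Slc8a, Slc9a, Slc12a, Slc20a, Slc24a, Slc26a or Slc34a followed by a number, and by a minimum of 10 reads in at least 5 of the 11 mice. Of 55 names, 44 met the minimum, out of 43346 genes in the table. Neither criterion used the difference between groups. Slc9a3r1, Slc9a3r2 and Slc4a1ap match by name only: Slc9a3r1 and Slc9a3r2 encode PDZ scaffold proteins that hold the exchanger SLC9A3 and other membrane proteins in place, and Slc4a1ap is not a carrier.

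All 11 animals were male Swiss Webster mice from one germ-free facility, singly housed in isolators and 8 to 10 weeks old at tissue collection. The 5 germ-free mice carried no microbiota. The 6 humanized mice had been germ-free until 4 to 5 weeks of age and then received 300 µL of a stool suspension by gavage, all from 1 human donor, so donor and colonization cannot be told apart. Polyadenylated RNA of colonic tissue was sequenced, with 49097005 to 64148538 reads counted in genes per germ-free mouse and 39125290 to 54219854 per humanized mouse. Which segment of the colon was taken was not given in the sources used here.

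Bulk colon holds epithelium, muscle, nerve and immune cells, and fewer cells of a type cannot be told apart from less RNA per cell. The 11 epithelial markers were present in every mouse, with a summed level of 4515 to 6158 RPKM (reads scaled by deposited gene length and by library size) in germ-free mice and 5181 to 7369 RPKM in humanized mice. Their median LFC (log2 fold change, humanized over germ-free) was 0.27, and 3 of 11 were higher at a false discovery rate (FDR) below 0.01. All 10 smooth muscle markers were lower in humanized mice, with a median LFC of −2.03 and a summed level of 403 to 1155 RPKM in germ-free mice against 48.0 to 402 RPKM in humanized mice. Of 8 enteric neuron markers, 7 were lower, with a median LFC of −1.95 and a summed level of 9.76 to 11.8 RPKM against 1.16 to 4.57 RPKM. Lower markers numbered 3 of 4 for enteric glia and 3 of 4 for fibroblasts, with median LFCs of −1.63 and −1.44. The 4 endothelial, 3 macrophage and 3 erythroid markers held no call, with median LFCs of −0.99, −0.40 and 0.17, whereas 3 of 4 T cell markers and 3 of 3 plasma cell markers were higher, with median LFCs of 1.26 and 3.07. Of 5 Hox genes of the distal colon, 2 had enough reads to test and 1 of these was lower, with a median LFC of −1.57, while Hoxb13, Hoxd13 and Hoxd12 were near 0. The part of tissue composition in the results below was not tested.

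In humanized mice, 2 of the 44 genes rose and 8 fell at FDR below 0.01. The genes that rose encode the apical sodium-proton exchanger SLC9A3, also called NHE3, and the sulfate carrier SLC26A2. The genes that fell were Slc24a3, Slc12a1, Slc8a2, Slc4a3, Slc12a4, Slc34a2, Slc9a9 and Slc12a5. The 2 genes are 4.55% of the members, beside 9.20% of all 19863 tested genes called higher, and the 8 genes are 18.2%, beside 10.1% of tested genes called lower. Slc12a1 met the read minimum through germ-free mice alone, and without it 7 of 43 members (16.3%) were lower. For 10 members, or 22.7%, no RPKM value of one group lay inside the range of the other, beside 18.4% of tested genes, and 8 of the 10 were also called. The median LFC of the members was −0.11, against 0.01 over tested genes, and 29 of 44 members had an LFC below 0.

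Calls depended on the test and on library scaling. An edgeR quasi-likelihood test called 1 gene higher, Slc9a3, and 3 lower, Slc4a3, Slc24a3 and Slc12a1, beside 7.05% of tested genes higher and 6.53% lower. Slc12a1 met the read minimum through germ-free mice alone, so its call here and under total-count or epithelial scaling is a description. Scaling the libraries by their total counts shifted the median LFC over all tested genes to −0.18 and gave 1 higher and 14 lower members, beside 3.89% and 18.2% of tested genes. Scaling them to the 11 epithelial markers shifted it to −0.24 and gave 0 higher and 13 lower members, beside 2.47% and 14.2% of tested genes. Without humanized mice 5 and 6, which stood apart in tissue markers, 2 members were higher and 9 lower, beside 9.02% of 19911 tested genes higher and 2200 of them lower. Slc12a1 (FDR 0.0115) and Slc12a5 (FDR 0.0254) then lost the call, and Slc20a1, Slc26a10 and Slc8a3 gained it as lower. No called gene turned its direction under any setting tried.

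**Figure D1:**
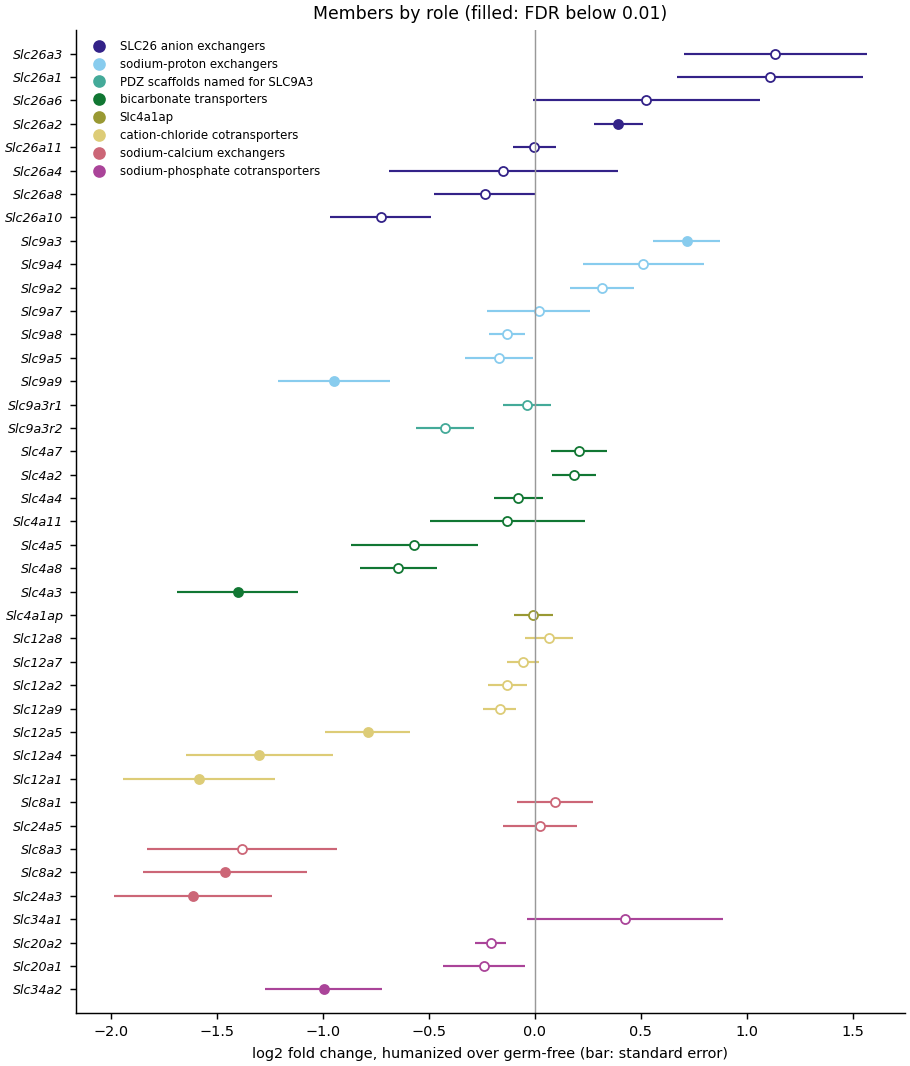
LFC of humanized over germ-free mice for the members reported by name, grouped by the role of the encoded protein, with bars for the standard error and filled points for FDR below 0.01. The 2 filled points to the right of 0 are Slc26a2 and Slc9a3, and the 8 to the left lie between −1.61 and −0.79.

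Sodium-proton exchangers import sodium and export protons. SLC9A3 and SLC9A2 do so at the apical membrane of enterocytes, and SLC9A7 and SLC9A9 work in endosomes and the trans-Golgi. Slc9a3 (chr13:74121515-74166064, mm10) was 24.7, 21.2, 33.95, 40.5 and 32.2 RPKM in the 5 germ-free mice and 55.0, 38.4, 51.7, 52.7, 57.7 and 45.5 RPKM in the 6 humanized mice. 5 of the humanized values lay above every germ-free value, and the groups overlapped only through humanized mouse 2 and germ-free mouse 4. The means were 30.5 ± 7.67 (SD, n = 5) and 50.1 ± 7.07 RPKM (SD, n = 6), with an LFC of 0.72, a standard error of 0.16 and an FDR of 1.47e-04. A two-sided exact permutation test, which enumerated every division of the 11 mice into 5 and 6, gave p = 0.00649. Slc9a3 stayed called when each of the 11 mice was left out in turn, with an LFC of 0.61 to 0.84. Scaled to the epithelial markers its LFC was 0.47 with an FDR of 0.0296, so the gene was then not called.

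Slc9a2, the other apical exchanger, was the more abundant transcript per length. Its level was 51.6, 54.8, 54.9, 58.4 and 57.3 RPKM in germ-free mice and 59.4, 56.6, 52.7, 65.3, 103 and 77.5 RPKM in humanized mice. Humanized mice 1, 4, 5 and 6 were above every germ-free mouse, with mice 5 and 6 the highest, and mice 2 and 3 were inside the germ-free range. Its LFC of 0.32 (standard error 0.15, FDR 0.115) was not called. It was 0.17 without humanized mouse 5, 0.08 without humanized mice 5 and 6, and 0.04 when scaled to the epithelial markers. Within a mouse, the ratio of Slc9a2 to Slc9a3 RPKM averaged 1.90 ± 0.451 (SD, n = 5) without and 1.38 ± 0.320 (SD, n = 6) with microbiota, and the exact permutation test of the log2 ratio, two-sided, gave p = 0.0541, or 0.0812 after adjustment over the 3 ratios tested.

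Slc9a9 fell. Its level was 0.751, 0.683, 0.843, 0.764 and 0.819 RPKM in germ-free mice and 0.278, 0.559, 0.602, 0.407, 0.167 and 0.390 RPKM in humanized mice. Every humanized mouse was below every germ-free mouse. The LFC was −0.95 with a standard error of 0.26 and an FDR of 0.00537, and the call was lost in 8 of the 11 fits that left out 1 mouse (each germ-free mouse, or humanized mouse 1, 4 or 6), with an FDR of at most 0.0214. Slc9a5, Slc9a8, Slc9a7 and Slc9a4 had LFCs of −0.17, −0.13, 0.02 and 0.51, and none was called; that of Slc9a7 turned to −0.15 under total counts and −0.20 under epithelial scaling. Slc9a4, next to Slc9a2 on chromosome 1 with 49.8 kb between the deposited intervals, was at 0.174 ± 0.0507 RPKM (SD, n = 5) in germ-free mice and 0.249 ± 0.0896 RPKM (SD, n = 6) in humanized mice.

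The 2 scaffolds were measured beside their exchanger. Slc9a3r1, also called NHERF1, had the highest mean of the members, with 126, 154, 151, 154 and 164 RPKM in germ-free mice and 157, 122, 116, 138, 173 and 169.9 RPKM in humanized mice. The ranges overlapped, and its LFC was −0.04 with a standard error of 0.11 and an FDR of 0.862. Slc9a3r2, or NHERF2, was lower in every humanized mouse (7.56 to 13.9 RPKM) than in every germ-free mouse (14.2 to 16.7 RPKM), with an LFC of −0.42 and an FDR of 0.0170, which did not pass. Scaled to the epithelial markers, both were called lower.

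**Figure D2:**
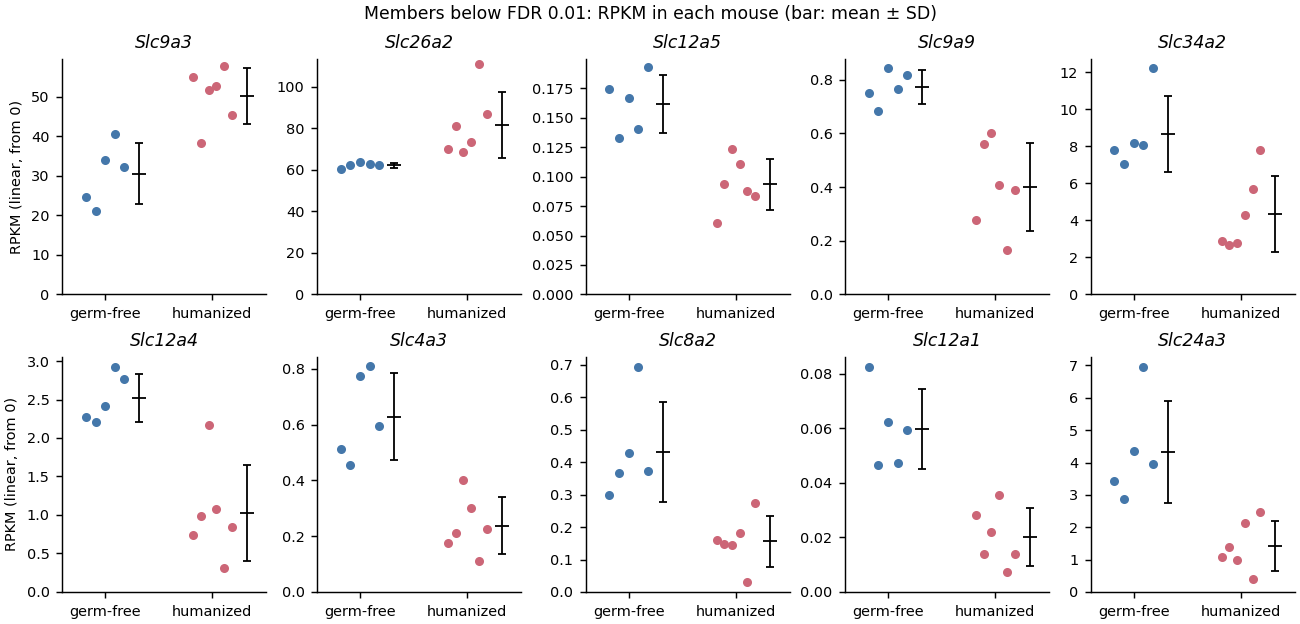
RPKM of the 10 called genes in each mouse, on linear axes from 0, with the mean and SD of each group beside the points (n = 5 germ-free and n = 6 humanized mice). Groups overlap for Slc9a3 and Slc34a2, and the germ-free values of Slc26a2 lie within 60.4 to 63.6 RPKM.

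SLC26 proteins exchange chloride, bicarbonate, sulfate, oxalate or iodide. Slc26a2 encodes a sulfate carrier that supplies cells with sulfate for mucins and proteoglycans, and Slc26a3, or Dra, encodes the apical chloride-bicarbonate exchanger whose loss causes congenital chloride diarrhoea. Slc26a2 was 60.4, 62.6, 63.6, 62.6 and 62.2 RPKM in germ-free mice and 70.1, 81.1, 68.4, 73.7, 111 and 86.8 RPKM in humanized mice. The 2 groups did not overlap, and the humanized mice spread more widely, with a coefficient of variation of 19.4% against 1.87%. The LFC was 0.39 with a standard error of 0.12 and an FDR of 0.00608, and the exact permutation test, two-sided, gave p = 0.00649. The call of Slc26a2 was lost in 7 of the 11 fits without 1 mouse (each germ-free mouse, or humanized mouse 2 or 6), with an FDR of up to 0.0237. Its LFC was 0.20 (FDR 0.125) when scaled by total counts and 0.13 (FDR 0.429) when scaled to the epithelial markers.

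Slc26a3 did not pass, and its mean rested on 1 mouse. Slc26a3, Slc26a1 and Slc26a6 were singled out after their values were seen. Slc26a3 (chr12:31390871-31473917, mm10) was 8.73, 13.8, 10.5, 9.94 and 12.8 RPKM in germ-free mice and 14.1, 16.8, 13.7, 12.1, 19.9 and 70.5 RPKM in humanized mice. Humanized mouse 6 was 3.54-fold above the next humanized mouse. The LFC was 1.13 with a standard error of 0.43 and an FDR of 0.0316. Without humanized mouse 6 it was 0.45 with an FDR of 0.0214, also above the threshold.

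The same mouse was highest for other anion exchangers of low level. Slc26a1, a sulfate and oxalate exchanger, was 0.397 to 0.572 RPKM in germ-free mice, 0.603 to 0.787 RPKM in humanized mice 1 to 5 and 3.17 RPKM in humanized mouse 6. Its groups did not overlap, and its LFC was 1.11 (FDR 0.0498), or 0.41 (FDR 0.111) without that mouse. Slc26a6, an apical exchanger of the small intestine, was 0.448 to 1.18 RPKM in germ-free mice, 0.442 to 0.772 RPKM in humanized mice 1 to 5 and 3.42 RPKM in humanized mouse 6. Its LFC turned from 0.53 (FDR 0.523) to −0.36 (FDR 0.398) without that mouse.

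Markers of the small intestine, listed after these values were seen, were also at their highest among the humanized mice in mouse 6. Of 6 listed, 5 could be tested, and 1, Sis, was called lower. Fabp6, an ileal bile acid binding protein, was 132 RPKM in that mouse, against 4.88 to 21.8 RPKM in the other humanized mice and 7.18 to 35.3 RPKM in germ-free mice. Apoa4 was 3.49 RPKM against at most 0.777 RPKM in the other humanized mice, and Fabp2 was 843 RPKM against at most 649 RPKM. Sis, the brush-border sucrase-isomaltase, was 11.04 RPKM, above the other humanized mice (0.566 to 4.86 RPKM) but inside the germ-free range of 9.72 to 18.9 RPKM. Apoa1 was 15.3 RPKM, above the other humanized mice (0.0871 to 6.73 RPKM) but inside the germ-free range of 3.53 to 61.0 RPKM. The part of these markers in the values of mouse 6 was not tested.

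**Figure D3:**
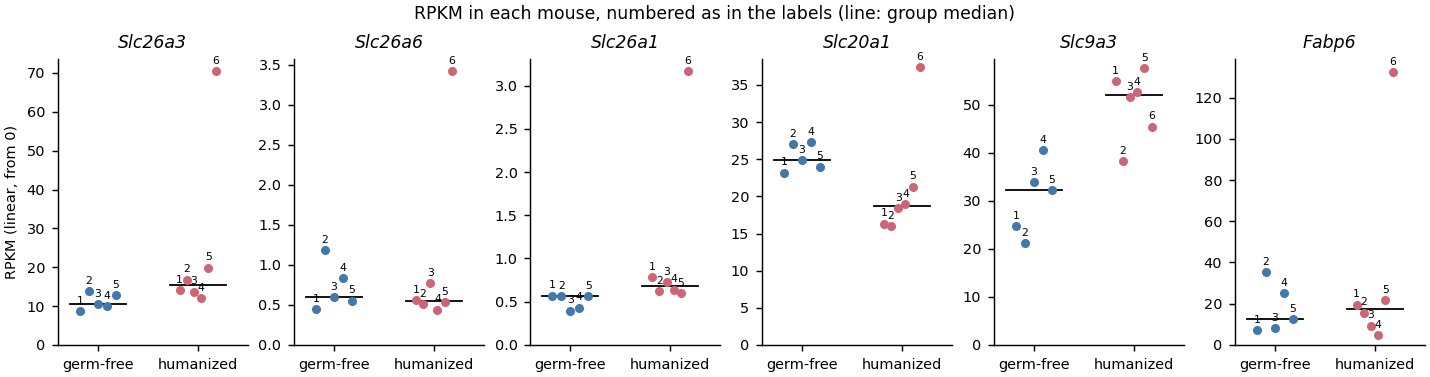
RPKM in each mouse for 5 members and the ileal marker Fabp6, on linear axes from 0, with each point numbered by mouse and a line at the group median. Humanized mouse 6 stands above all other mice for Slc26a3 (70.5 RPKM), Slc26a6, Slc26a1, Slc20a1 and Fabp6, and within the humanized range for Slc9a3.

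Among the remaining SLC26 genes, Slc26a10 had an LFC of −0.73 with an FDR of 0.0230, and Slc26a11, Slc26a8 and Slc26a4 had LFCs of −0.0021, −0.23 and −0.15. Slc26a10 passed without humanized mouse 6, with an LFC of −0.85 and an FDR of 0.00917. Slc26a4, or pendrin, starts 45.9 kb after the deposited end of Slc26a3 and was at or below 0.162 RPKM in every mouse, with 138 reads in all.

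Upstream sequence of 3 genes is given from RefSeq (GRCm38.p6, the assembly of mm10), to set beside each other the starts of a member that rose, Slc9a3, one that fell, Slc12a4, and one that varied widely among mice, Slc26a3. Each run is the 150 bases before the RefSeq start, read 5′ to 3′ on the gene's strand, with capitals for the GC box GGGCGG, the TATA box TATAAA and the CCAAT box CCAAT on either strand. They lie at chr13:74121263-74121412 on the plus strand, chr8:105966116-105966265 on the minus strand and chr12:31438069-31438218 on the plus strand, in that order. The RefSeq start of Slc26a3 lies inside the deposited interval of the gene, which begins further upstream, and its window holds 2 bases annotated as exon.
Slc9a3: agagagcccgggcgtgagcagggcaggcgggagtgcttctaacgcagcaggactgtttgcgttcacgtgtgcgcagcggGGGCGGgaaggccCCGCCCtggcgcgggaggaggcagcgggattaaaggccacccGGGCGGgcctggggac
Slc12a4: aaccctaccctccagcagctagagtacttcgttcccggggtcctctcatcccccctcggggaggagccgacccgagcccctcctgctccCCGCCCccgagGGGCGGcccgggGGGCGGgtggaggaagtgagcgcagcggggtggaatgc
Slc26a3: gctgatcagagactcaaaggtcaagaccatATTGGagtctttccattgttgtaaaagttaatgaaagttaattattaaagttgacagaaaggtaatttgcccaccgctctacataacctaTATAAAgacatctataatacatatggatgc

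The windows of Slc9a3 and Slc12a4 were 72% and 72.7% G or C and held 3 GC boxes each, whereas that of Slc26a3 was 34% G or C and held 1 TATA box and 1 CCAAT box. RefSeq windows of 250 bases before to 50 after a start matched 34 of the 44 members, with 44 windows. GC boxes were in 22 of these (50%), against 35.7% of 32851 windows of all genes, TATA boxes in 8 (18.2% against 13.6%) and CCAAT boxes in 17 (38.6% against 37.4%). The CArG box, the motif of smooth muscle genes bound by serum response factor, was in 0 of the 44 windows and in 1.63% of all windows. These matches describe letters only.

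Cation-chloride cotransporters carry chloride with sodium and potassium, as NKCC1 (Slc12a2) and NKCC2 (Slc12a1) do, or with potassium alone, as the KCC proteins do. Of the 8 members, 3 fell, beside 10.1% of all tested genes, and 1 of the 3 is Slc12a1, which met the read minimum through germ-free mice alone. Such small counts are a description. Slc12a4, or KCC1, a widely expressed volume regulator, was 2.27, 2.21, 2.42, 2.93 and 2.77 RPKM in germ-free mice and 0.735, 0.990, 2.17, 1.08, 0.309 and 0.850 RPKM in humanized mice. The groups did not overlap, although humanized mouse 3 was only just below the lowest germ-free mouse. Its LFC was −1.30 with a standard error of 0.35 and an FDR of 0.00203, and without germ-free mouse 4 the FDR was 0.0101.

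Slc12a5, or KCC2, is the neuronal chloride extruder. It was 0.175, 0.133, 0.167, 0.141 and 0.193 RPKM in germ-free mice and 0.0607, 0.0938, 0.123, 0.111, 0.0880 and 0.0834 RPKM in humanized mice. Every humanized mouse was lower, on 16 to 42 reads per mouse against 50 to 97. The LFC was −0.79 with a standard error of 0.20 and an FDR of 0.00314, and the call was lost in 5 of the 11 fits without 1 mouse (germ-free mouse 1, 3 or 5, or humanized mouse 1 or 6), with an FDR of up to 0.0198.

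Slc12a1, the renal cotransporter NKCC2, had the fewest reads of all members, 135 in all. It had 30, 14, 21, 17 and 24 reads in the germ-free mice and 6, 3, 6, 8, 2 and 4 reads in the humanized mice, or 0.0826, 0.0464, 0.0623, 0.0472 and 0.0596 RPKM against 0.0284, 0.0140, 0.0220, 0.0357, 0.00731 and 0.0139 RPKM. It met the read minimum in the 5 germ-free mice alone and so had to differ, and its LFC of −1.58 (FDR 2.74e-04) is a description. Leaving it out, 7 of 43 members (16.3%) were lower, beside 10.1% of tested genes, and 9 (20.9%) had groups that did not overlap, beside 18.4%.

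The abundant members of this family were not called. Slc12a2, which loads chloride for secretion, was 104, 101, 88.7, 82.9 and 82.2 RPKM in germ-free mice and 85.0, 90.9, 81.1, 92.5, 85.2 and 68.4 RPKM in humanized mice. Its LFC was −0.13 with a standard error of 0.09 and an FDR of 0.369. Slc12a7, or KCC4, was 30.1, 27.9, 31.2, 29.8 and 28.8 RPKM in germ-free mice and 27.2, 24.5, 25.7, 30.04, 31.98 and 31.4 RPKM in humanized mice, and its LFC of −0.05 (FDR 0.697) was smaller than its standard error of 0.08. Slc12a8 was 33.6, 36.9, 31.4, 26.2 and 32.1 RPKM in germ-free mice and 40.3, 32.4, 30.4, 40.2, 28.2 and 29.9 RPKM in humanized mice. Its LFC was 0.07 with an FDR of 0.737, a value that turned to −0.12 under total counts and −0.18 under epithelial scaling. Slc12a9 had an LFC of −0.17.

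Secretory and absorptive transcripts were also set against each other within a mouse, where library scaling cancels. The ratio of Slc12a2 to Slc26a3 RPKM averaged 8.47 ± 2.07 (SD, n = 5) without and 5.04 ± 2.27 (SD, n = 6) with microbiota. It was 0.970 in humanized mouse 6 and 4.28 to 7.62 in the others, and the germ-free range of 6.40 to 11.9 overlapped this. The exact permutation test of the log2 ratio, two-sided, gave p = 0.0260, or 0.0779 after adjustment. The ratio of Slc26a3 to Slc9a3 was 0.392 ± 0.156 (SD, n = 5) and 0.514 ± 0.513 (SD, n = 6), with p = 0.903 by the same exact test, and its log2 difference turned from 0.09 to −0.31 without humanized mouse 6.

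Bicarbonate transporters of the SLC4 family are anion exchangers, as AE2 (Slc4a2) and AE3 (Slc4a3), or sodium-coupled carriers. Slc4a3, best known from heart and brain, was 0.513, 0.453, 0.774, 0.808 and 0.594 RPKM in germ-free mice and 0.174, 0.213, 0.402, 0.302, 0.110 and 0.225 RPKM in humanized mice. The groups did not overlap. The LFC was −1.40 with a standard error of 0.29 and an FDR of 6.76e-05, the lowest FDR among the members, and the exact permutation test, two-sided, gave p = 0.00433, where the splits of the mice allow at least 0.00216. It stayed called without any 1 mouse, with an LFC of −1.62 to −1.25.

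Slc4a2, the basolateral exchanger AE2, was the most abundant of the family. It was 73.2, 69.0, 77.2, 73.0 and 70.1 RPKM in germ-free mice and 84.6, 68.0, 74.3, 91.6, 104 and 72.2 RPKM in humanized mice. The groups overlapped, and the LFC of 0.19 (standard error 0.10, FDR 0.220) turned to −0.08 under epithelial scaling. Slc4a4, the electrogenic sodium-bicarbonate cotransporter NBCe1, had an LFC of −0.08. Slc4a7 had an LFC of 0.21 (−0.06 under epithelial scaling) with humanized mouse 6 at 25.8 RPKM against at most 17.3 RPKM in the other mice. Without that mouse the LFC of Slc4a7 was 0.06. Slc4a8 had an LFC of −0.64 with an FDR of 0.0117, just above the threshold, Slc4a5 had an LFC of −0.57 with an FDR of 0.172, and Slc4a11 and Slc4a1ap had LFCs of −0.13 and −0.0059.

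Sodium-calcium exchangers of SLC8 and SLC24 extrude calcium from excitable and other cells, the latter with potassium. Of 5 members, 2 fell, beside 10.1% of all tested genes, and Slc8a3 had an FDR just above the threshold. Slc24a3, or NCKX3, was 3.42, 2.88, 4.36, 6.94 and 3.97 RPKM in germ-free mice and 1.09, 1.39, 0.975, 2.13, 0.415 and 2.47 RPKM in humanized mice. Every humanized mouse was below every germ-free mouse. Its LFC of −1.61 was the lowest of the 44, with a standard error of 0.37 and an FDR of 2.58e-04, and it stayed called without any 1 mouse.

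Slc8a2 was 0.300, 0.366, 0.428, 0.692 and 0.372 RPKM in germ-free mice and 0.161, 0.146, 0.145, 0.182, 0.0298 and 0.273 RPKM in humanized mice. Again no humanized mouse reached the germ-free range. The LFC was −1.46 with a standard error of 0.39 and an FDR of 0.00189, and without germ-free mouse 4, the highest, it was −1.23 with an FDR of 0.0148. Slc8a3 had an LFC of −1.38 and an FDR of 0.0130. Slc8a1, the widely expressed exchanger NCX1, was 23.3, 19.8, 20.1, 24.4 and 21.01 RPKM in germ-free mice and 18.2, 18.5, 15.8, 26.2, 35.6 and 25.1 RPKM in humanized mice. Its groups overlapped, with an LFC of 0.10 (FDR 0.753) that turned to −0.07 without humanized mouse 5 and to −0.19 under epithelial scaling. Slc24a5, the melanosome exchanger, had an LFC of 0.03, which turned to −0.15 under total counts and −0.21 under epithelial scaling.

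In humanized mouse 5, the summed smooth muscle markers were 48.0 RPKM and the neuron markers 1.16 RPKM, the lowest of all mice. The summed fibroblast (13.6 RPKM), endothelial (1.78 RPKM) and macrophage (9.31 RPKM) markers were also lowest there. So were Slc24a3, Slc8a2, Slc8a3, Slc12a4, Slc4a3, Slc9a9 and Slc12a1. The enteric glia markers were not: their sum was 0.603 RPKM there and 0.461 RPKM in the lowest humanized mouse. Among the genes called lower, Slc34a2 was at 5.72 RPKM there, against 2.64 RPKM in the lowest humanized mouse. Slc12a5 was at 0.0880 RPKM there, against 0.0607 RPKM in humanized mouse 1. Slc9a2 and Slc26a2 were at their highest in humanized mouse 5. Among the humanized mice, mouse 5 had the highest value for 13 members and the lowest for 17. The 8 genes called lower had germ-free means of at most 8.65 RPKM, and 5 of the 8 were below 1 RPKM.

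Sodium-phosphate cotransporters import phosphate at the apical membrane (SLC34) or as general suppliers (SLC20). Slc34a2, or NaPi-IIb, the intestinal phosphate cotransporter, fell. It was 7.78, 7.05, 8.18, 8.04 and 12.2 RPKM in germ-free mice and 2.87, 2.64, 2.76, 4.26, 5.72 and 7.77 RPKM in humanized mice. Only humanized mouse 6 reached into the germ-free range, and germ-free mouse 5 stood above its group. The LFC was −0.996 with a standard error of 0.27 and an FDR of 0.00243, and the call was lost without germ-free mouse 5 (LFC −0.84, FDR 0.0177) or without humanized mouse 1 (LFC −0.90, FDR 0.0107).

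Slc20a1, a general phosphate importer, was not called across the 11 mice but was called without 1 of them. It was 23.2, 27.0, 24.9, 27.3 and 24.02 RPKM in germ-free mice and 16.3, 15.99, 18.4, 19.0, 21.3 and 37.4 RPKM in humanized mice. Humanized mice 1 to 5 were all below the germ-free range, and humanized mouse 6 was above it. The LFC was −0.24 with an FDR of 0.398, and without humanized mouse 6 it was −0.48 with an FDR of 1.85e-05. Slc20a2 and Slc34a1 had LFCs of −0.21 (FDR 0.0699) and 0.43 (FDR 0.584).

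**Figure D4:**
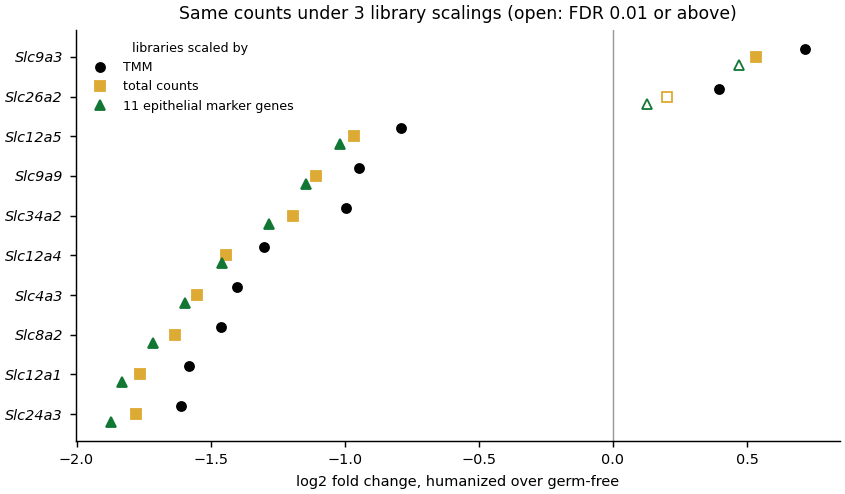
LFC of the 10 called genes from the same counts under 3 library scalings, with open symbols for an FDR of 0.01 or above. Total counts and epithelial markers move all points to the left, and Slc26a2 (total counts and epithelial markers) and Slc9a3 (epithelial markers) then lose the call.

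Summed over their genes, the SLC26 family made up 11.03 ± 0.251% (SD, n = 5) of the members' RPKM without microbiota and 14.5 ± 2.96% (SD, n = 6) with microbiota. Humanized mouse 6 raised that mean: its SLC26 share was 19.8%, against 11.8% to 15.2% in humanized mice 1 to 5, and without it the mean was 13.5 ± 1.62% (SD, n = 5). The 5 other humanized mice were still above the germ-free range of 10.7% to 11.3%. The phosphate cotransporters made up 5.90 ± 0.162% and 4.28 ± 0.939%, with mouse 6 at 6.13%, inside the germ-free range, and the other humanized mice at 3.57% to 4.30%, below it. The sodium-proton exchangers made up 16.8 ± 0.984% and 19.95 ± 1.43%, and the cation-chloride cotransporters 24.04 ± 2.07% and 21.5 ± 2.85%. The scaffolds made up 23.1 ± 1.72% and 20.6 ± 1.37%, the bicarbonate transporters 14.6 ± 0.520% and 15.1 ± 0.989%, and the sodium-calcium exchangers 4.03 ± 0.502% and 3.48 ± 0.539%, and in each of these 3 the ranges of the groups overlapped. The shares sum to a whole, so they do not vary independently, and they were not tested. These shares compare levels per deposited length, which was within 10% of the merged exon length of the GENCODE M21 annotation for 31 of 44 members. It was 0.452 times that length for Slc9a3, 0.156 times for Slc8a1, 0.405 times for Slc12a7 and 0.486 times for Slc4a7. It was 0.597 times for Slc12a2, 0.587 times for Slc20a2, 0.55 times for Slc26a10 and 0.744 times for Slc4a2. Levels between these genes and others are therefore uncertain. Exons of 7 members overlapped other genes by over 10% of their length, and the library kit does not mark strand. Among them were Slc24a5 (39.5%), Slc9a4 (21.3%), Slc26a10 (17.8%), Slc4a2 (13.7%), Slc20a1 (13.1%) and Slc34a1 (11.7%). Spread between mice was larger after colonization: the median coefficient of variation of the members was 12.3% for the germ-free group and 25.6% for the humanized group. Over all tested genes the medians were 10.4% and 16.5%. The coefficient was larger in the humanized group for 36 of 44 members (81.8%), beside 80.2% of tested genes.

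Other genes of epithelial ion transport were read from a list of 33, of which 32 were tested. Of these, 3 were higher and 7 were lower, beside the 9.20% and 10.1% of all tested genes, and the median LFC was −0.07, so the counts are given as a description and the genes by their own tests. Among 19 regulators of NHE3 and NKCC1, 3 rose and 3 fell. Chp1, an obligate partner of plasma membrane sodium-proton exchangers, rose: it was 112 to 126 RPKM in germ-free mice and 146 to 273 RPKM in humanized mice, with an LFC of 0.84. Ahcyl2, which binds and regulates ion carriers, and the kinase Sgk2 rose with LFCs of 0.54 and 0.80. Sgk1, a kinase that responds to corticosteroids and stimulates sodium uptake, fell: it was 49.8 to 78.6 RPKM in germ-free mice and 23.99 to 31.4 RPKM in humanized mice, with an LFC of −1.20 and an FDR of 5.47e-20. Tesc, another exchanger partner, and the kinase Wnk4 fell with LFCs of −0.78 and −0.28. Of the 9 channels and pumps, 4 fell: the potassium channel genes Kcne3 (LFC −0.47) and Kcnma1 (LFC −0.43), the bicarbonate channel Best2 (LFC −0.64) and the proton pump Atp12a. Atp12a had 12 to 78 reads per germ-free mouse and 0 to 10 per humanized mouse, and the groups overlapped. Only germ-free mice had over 10 reads, so the expression filter favoured a gene of this pattern, and its LFC of −2.52 is a description. Under epithelial scaling Ahcyl2 was not called (LFC 0.27, FDR 0.0470), nor under total counts (LFC 0.35, FDR 0.0328), and the other 9 kept their direction and their call under both scalings. By the quasi-likelihood test Ahcyl2 (FDR 0.0133), Kcne3 (FDR 0.0144), Best2 (FDR 0.0163) and Atp12a (FDR 0.0116) were not called.

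The 11 names that fell below the read minimum were Slc26a5, Slc26a7, Slc26a9, Slc34a3, Slc12a3, Slc4a1, Slc4a9, Slc4a10, Slc24a1, Slc24a2 and Slc24a4, with 2 to 82 reads over the 11 mice. Closest outside the minimum were Slc4a10 and Slc24a2, with 10 reads in 3 mice each, and closest inside were Slc12a1 and Slc26a4, with 10 reads in 5 mice each. All 44 members passed the expression filter of the test.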

How the data were processed

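Colon polyA RNA of 5 germ-free and 6 humanized mice was sequenced as paired reads after TruSeq v2 library preparation. Per the labels, the authors aligned reads to mm10 with TopHat2 2.1.0 and Bowtie2 2.2.3 and made gene counts with featureCounts of Subread 1.4.6-p5. The deposited values were raw counts of 43346 genes. The strand setting, and how the deposited gene lengths were made, are not given in the sources used here. Groups followed the treatment label.

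From the counts, filterByExpr (minimum count 10, minimum total 15, proportion 0.7) kept 19863 genes. TMM normalization, dispersion estimates and the exact test of edgeR 4.0.16 (R 4.3.3) followed the study's methods, with Benjamini-Hochberg adjustment over all tested genes and a threshold of 0.01. Standard errors came from edgeR's quasi-likelihood fit. RPKM used TMM library sizes and deposited lengths. Single values and ratios were tested by two-sided exact permutation of the 11 mice on log2 RPKM with 0.01 added for single genes. DESeq2 1.42.0, other scalings, filters, thresholds, thinning to 39125290 reads and leaving out each mouse were alternatives. The fits were tested on simulated data of 19510 genes, of which 200 were changed. Changed genes recovered and unchanged genes wrongly called numbered 160 and 7 for the exact test. Those numbers were 140 and 0 under quasi-likelihood, and 165 and 11 under DESeq2. Within-group correlations of the mice were 0.960 to 0.989. The count totals give low relative counting error except for members of few reads.

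Values are given in every mouse for members below the threshold and for the 10 members of highest mean RPKM, in addition for Slc26a3, which was chosen after its values were seen, and others by counts and ranges; a few genes are not reported here. Members, gene lists and cell markers were chosen with earlier results of these data known.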

Additional observations from a re-analysis of the deposited data

Results flagged for a closer look

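In a test for a single mouse far from the rest of its group, 8 of the 88 groups (44 genes in each of 2 groups) held such a mouse; chance gives this in about 1 of 20 groups. Humanized mouse 6 accounted for 5 of them. It was at 70.5 RPKM for Slc26a3, where the next humanized mouse was at 19.9, and at 3.42 RPKM for Slc26a6, where the next was at 0.772. For Slc26a1 it was at 3.17 RPKM beside 0.787, for Slc20a1 at 37.4 RPKM beside 21.3, and for Slc4a7 at 25.8 RPKM beside 17.3. Humanized mouse 5 was highest for Slc4a4, at 18.4 RPKM beside 14.9, and for Slc20a2, at 8.02 RPKM beside 7.20. Germ-free mouse 5 was highest for Slc34a2, at 12.2 RPKM beside 8.18.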

How the results depend on the processing

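For single named members under alternatives, 402 values kept their direction and their side of the threshold, 41 lost a call, 3 gained one and 13 turned direction, and no called member turned its direction. Counts of members called higher and lower were 1 and 3 by the quasi-likelihood test, 1 and 14 with total counts, 0 and 13 with epithelial scaling, 4 and 12 at FDR below 0.05 (beside 14.0% and 14.6% of all tested genes), and 0 and 5 with an absolute LFC above 1 (2.04% and 6.41%). With 1 mouse left out they were 1 to 2 higher and 5 to 10 lower, beside 6.69% to 10.6% and 7.45% to 11.8% of all tested genes. DESeq2 called 2 and 10 (beside 2185 and 2182 of 19863 tested genes), RLE normalization 2 and 8 (1788 and 2009), upper-quartile normalization 2 and 8 (7.87% and 10.9%), no filter 2 and 8 (5.16% and 6.40%), 10 reads in every mouse 2 and 7 of 37 tested (9.02% and 10.1%), and thinning 2 and 9 (9.32% and 10.2%).

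LFCs of members given in every mouse turned for Slc12a8 (−0.12 with total counts and −0.18 with epithelial scaling), Slc4a2 (−0.0036 and −0.076) and Slc8a1 (−0.10 and −0.19, and −0.15 without humanized mice 5 and 6, a setting added after seeing the data); among other members, those of Slc4a7, Slc9a7 and Slc24a5 turned under epithelial scaling. Without 1 mouse, LFCs ranged from −0.066 to 0.19 for Slc8a1, −0.094 to 0.0207 for Slc9a3r1 and −0.36 to 0.77 for Slc26a6, which was −0.34 without humanized mice 5 and 6. The log2 ratio differences without 1 mouse ranged from −0.31 to 0.29 for Slc26a3 to Slc9a3, from −1.12 to −0.53 for Slc12a2 to Slc26a3 and from −0.55 to −0.34 for Slc9a2 to Slc9a3. The cause was not tested.

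The replicate numbers of the labels name separate animals, and deviations of same-numbered mice correlated by −0.13 to 0.09, so the numbers do not pair the mice. With the replicate number as a block, the quasi-likelihood test called 1 member higher, Slc9a3, beside 2.55% of tested genes. It called 3 lower (Slc24a3, Slc34a2 and Slc4a3), also beside 2.55%. Humanized mouse 6 has no partner of its number, so it does not count in this fit or in the 5 pairs. Slc26a6 then turned to −0.29. The ratio differences over the 5 pairs were −0.31 for Slc26a3 to Slc9a3 and −0.53 for Slc12a2 to Slc26a3. An exact sign-flip test gave p = 0.0625 for each, the smallest that 5 pairs allow. As the numbers do not pair the mice, no conclusion is drawn from it. Depth limits members of few reads, such as Slc12a1, on 2 to 30 reads per mouse, and Slc26a4. The design has 1 donor, 1 sex and 1 tissue.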
